A study of Drosophila melanogaster with 4 samples.

Results

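Wide H4K20me1 domains are the stretches of 20 kb or more that were called as 1 enriched region in the list made from both ChIP replicates together (the combined list). They numbered 290 of the 6850 enriched regions in that list, and they were chosen by width on both arms of chromosomes 2 and 3 (2L, 2R, 3L and 3R) and on X. Outside these arms, 0 regions reached 20 kb and the widest was 17035 bp. The data came from chromatin immunoprecipitation with sequencing (ChIP-seq) of embryos of Drosophila melanogaster, strain Oregon-R, genotype wild type, aged 14 to 16 h. The antibody (4th lot, per the labels) was against histone H4 monomethylated at lysine 20. There were 2 ChIP replicates and 2 input controls, and the labels number the inputs 1 and 2 like the ChIP replicates. All embryos shared strain, genotype and stage, and whole embryos were used, so the values are averages over all their tissues. The labels do not say whether the replicates came from separate embryo collections, so their spread may be technical.

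H4K20me1 is placed by the methyltransferase PR-Set7, also called Set8, and is turned into the dimethylated and trimethylated forms by Suv4-20. Its level changes through the cell cycle, and PR-Set7 is needed for normal division and for chromosome condensation. In mammals the mark is known over the bodies of transcribed genes and on the inactive X chromosome. Genes inside the domains are not named, because the gene table at hand describes another release of the genome.

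Wide domains were a small share of the regions and a larger share of the marked territory. They made up 4.34% of the 6680 enriched regions on the 5 arms and 27.0% of the bases inside them, 10.07 Mb in all. They filled 8.46% of the 119 Mb of the 5 arms, and all regions together filled 31.3%. Wide regions of the replicates' own lists numbered 231 in replicate 1 and 235 in replicate 2 and filled 6.55% ± 0.195 of the arms (SD, n = 2). The combined list thus held more domains than either replicate.

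Of the wide domains, 54.8% were less than 30 kb wide. The median width was 28802 bp, the quartiles were 23098 and 39232.5 bp, and the widest was 134477 bp. Widths of 20 to 30 kb were found in 159 domains, 30 to 50 kb in 95, 50 to 100 kb in 29, and 100 kb or more in 7. Just inside the threshold stood 2R from 5893395 to 5913418 (20024 bp), 2R from 12914615 to 12934697 (20083 bp) and 3R from 4599283 to 4619481 (20199 bp). Just outside it were 2L from 16642626 to 16662604 (19979 bp), 3R from 1097501 to 1117306 (19806 bp) and 3R from 19788498 to 19808287 (19790 bp). The scores on either side of the threshold lay in one range, with 0.76, 1.70 and 1.85 inside it and 1.38, 1.71 and 1.40 outside.

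The score deposited by the authors has no stated definition and was read as a log2 ratio from its values. On that reading 1 stands for a doubling, and the fold ratios given here rest on it. Scores of the wide domains ran from 0.65 to 3.06 with a median of 1.41, and 247 of the 290 reached 1, or 85.2%. Regions of 10 to 20 kb had a median score of 1.23, and all regions on the 5 arms one of 0.57, of which 25.3% reached 1. Scores were computed from the same libraries as the widths, so these values are a description. Whether the score is a mean or a peak value over a region is unknown.

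Among the wide domains themselves, width said little about score. Spearman's correlation of width with score was 0.14 over the 290 domains and 0.17 over the 588 regions of 10 to 20 kb. Over the 6390 regions under 20 kb it was 0.80. The median score was 1.24 in domains of 20 to 30 kb and 1.48 in those of 30 to 50 kb. It was 1.42 in domains of 50 to 100 kb and 1.79 in the 7 of 100 kb or more. These correlations run across regions of the same libraries and carry no p-value.

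**Figure D1:**
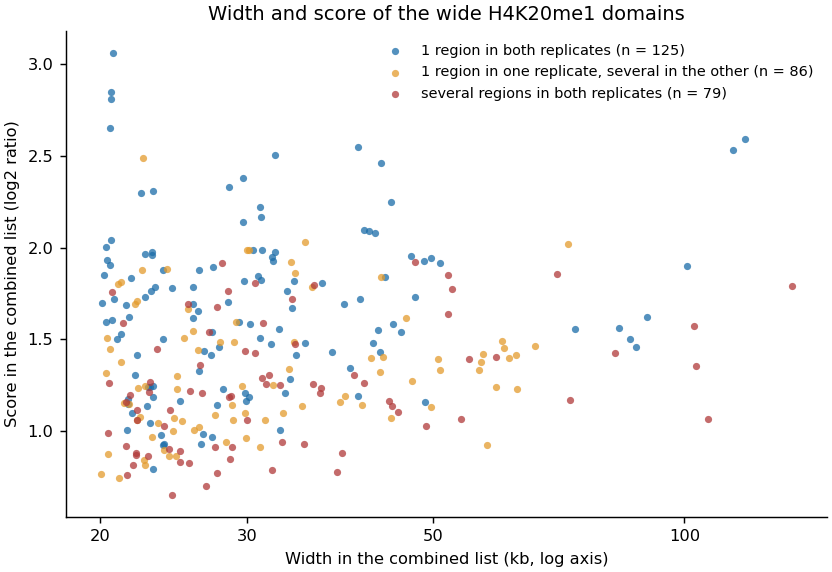
Width (x axis, kb, log axis) against score (y axis, log2 ratio) of the 290 wide domains in the combined list, 1 point each, coloured by whether the domain was 1 region or several in the replicate lists. Of the 5 highest points, 4 lie near 20 kb and 1 at 118144 bp, and domains that were 1 region in both replicates have a median score of 1.67, against 1.20 for those that were several regions in both.

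Of the 5 domains of highest score, 4 were close to the width threshold and 1 was among the widest. The highest, on 3L from 1777147 to 1797866 (20720 bp), scored 3.06, an 8.34-fold ratio, and was 1 region of score 3.21 in replicate 1 and 1 of score 3.00 in replicate 2. On 3R, the domain from 612383 to 632994 (20612 bp) scored 2.85, with 2.84 and 2.88 in replicates 1 and 2. Another on 3R, from 20054596 to 20075178 (20583 bp), scored 2.81 and also had 2.84 and 2.88 in the replicates. Also on 3R, the domain from 5166807 to 5187361 (20555 bp), scored 2.65, with 2.66 in each replicate. All 4 were narrower than 21 kb, and each was a single region in both replicates. The other of the 5, on 3R from 5698729 to 5816872, was 118144 bp wide and scored 2.59, with 2.55 and 2.63 in the replicates. The 25 domains of score 2 or more had a median width of 31012 bp, beside 28802 bp over all 290.

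Each of the 5 domains of lowest score was split in at least 1 replicate, though not always in both. On 3R from 23207910 to 23232266 (24357 bp) the score was 0.65, a 1.57-fold ratio, and the domain was 5 regions in each replicate. Replicate 1 covered 63.7% of it and replicate 2 covered 96.7%. On 3L from 1688494 to 1715228 (26735 bp) the score was 0.70, and the domain was 7 regions in replicate 1 and 2 in replicate 2. A second one on 3L, from 11737422 to 11758465 (21044 bp), scored 0.74 and was 1 region in replicate 1 and 4 in replicate 2. The remaining pair lay on 2R, from 14767537 to 14789036 (score 0.76, 4 and 3 regions in replicates 1 and 2) and from 5893395 to 5913418 (score 0.76, 5 and 1 regions). The domain from 5893395 is also the narrowest of all 290. None of these 5 was a single region in both replicates. Cover in replicates 1 and 2 was 76.1% and 94.3% for the domain from 1688494, and 100% and 78.3% for the one from 11737422. It was 81.6% and 97.4% for the one from 14767537, and 76.8% and 98.8% for the one from 5893395.

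Every wide domain was touched by a region of each replicate, 290 of 290, whereas 67.8% of all regions on the 5 arms were. A wide region offers more bases to touch, and of the regions of 10 to 20 kb 587 of 588 were touched by both. Replicate regions covered 97.7% ± 0.222 of the bases of the wide domains (SD, n = 2). The median domain was covered over 98.9% in replicate 1 and 98.8% in replicate 2. Cover fell under 90% in 15 domains in replicate 1 and in 10 in replicate 2, and the lowest values were 63.7% and 71.7%.

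Fewer of the domains were unbroken in each replicate. Of the 290, 125 (43.1%) were 1 region in both replicates, beside 53.8% of all regions on the 5 arms and 47.3% of the regions of 10 to 20 kb. The 53.8% also counts regions that a replicate did not touch, which cannot be 1 region in both. Of all 6680 regions, 4532 were touched by both replicates and 3591 were 1 region in both, a larger share of the touched ones. A further 39 were 1 region in replicate 1 and several in replicate 2, and 47 were several in replicate 1 and 1 in replicate 2. The other 79 (27.2%) were several regions in both. Replicate 1 had 164 of the domains as 1 region and replicate 2 had 172, or 57.9% ± 1.95 (SD, n = 2). The most regions in 1 domain were 7 in replicate 1 and 6 in replicate 2.

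The breaks were short. Replicate 1 had 230 gaps inside the domains, with a median of 241.5 bp, and replicate 2 had 174, with a median of 223 bp. Gaps under 1000 bp made up 85.2% of them in replicate 1 and 84.5% in replicate 2, and the longest were 3549 and 3683 bp. All gaps together took 109 kb in replicate 1 and 74.1 kb in replicate 2, out of 10.07 Mb in all domains, the unbroken ones included. Domains that were several regions in both replicates had a median cover of 97.2% in replicate 1 and 97.9% in replicate 2. At the median such a domain was thus mostly marked along its length, and most of the interruptions were narrow.

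Part of the breaks fell at the same place in both replicates. In domains split in both, 86 of 152 gaps of replicate 1 (56.6%) lay within 500 bp of a gap of replicate 2. Of the 122 gaps of replicate 2 in these domains, 86 (70.5%) lay that close to a gap of replicate 1. The rest of the 230 and 174 gaps of replicates 1 and 2 lay in domains that the other replicate left unbroken. The share that gaps placed at random would reach was not computed. The pieces of a domain could differ in level: the highest and the lowest piece, neighbours or not, of a split domain differed by a median of 0.49 in replicate 1 and 0.38 in replicate 2, on the log2 scale. The widest such differences were 1.55 and 1.61.

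Domains of higher score were more often 1 region in both replicates. The share was 7 of 43 (16.3%) at scores under 1, 35 of 125 (28.0%) from 1 to 1.5, 61 of 97 (62.9%) from 1.5 to 2, and 22 of 25 (88.0%) at 2 or more. Domains that were several regions in both replicates made up 51.2%, 31.2%, 18.6% and 0% of these classes. The median width of the 4 classes was 24414, 30153, 29723 and 31012 bp, so the weakest class was also the narrowest. Score and continuity were read from the same libraries, and no test of their relation was made. Shares for narrower regions of the same scores are not given, so the trend cannot be called particular to wide domains.

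**Figure D2:**
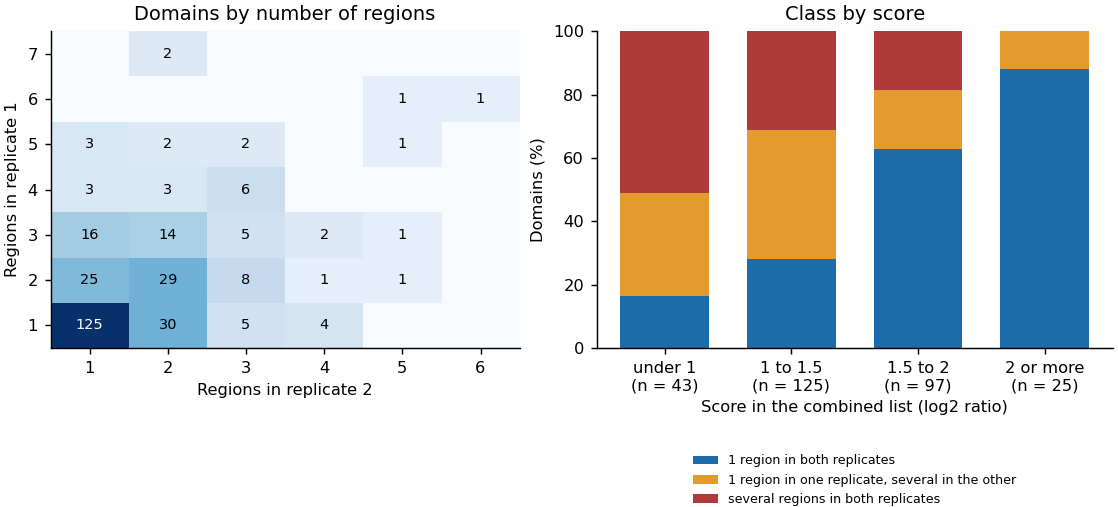
Left, the 290 wide domains by the number of regions that overlap each in replicate 1 (y axis) and replicate 2 (x axis), with the number of domains in each cell (darker means more); 125 were 1 region in both. Right, the percentage of domains (y axis) in each replicate class for 4 classes of score (x axis, log2 ratio); the share that was 1 region in both is 16.3% under 1 and 88.0% at 2 or more.

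Across width classes the shares followed no single order. Of the domains of 20 to 30 kb, 70 of 159 (44.0%) were 1 region in both replicates, and of those of 30 to 50 kb 46 of 95 (48.4%). At 50 to 100 kb the count was 6 of 29 (20.7%), and at 100 kb or more it was 3 of 7 (42.9%).

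Not every domain held a wide region in each single replicate. A region of 20 kb or more was found in both replicates within 189 of the 290 domains, in replicate 1 alone within 28, and in replicate 2 alone within 41. In 32 domains neither replicate had one. These 32 had a median width of 22485.5 bp and a median score of 1.09, and the widest of them, on 3R from 21211539 to 21249913 (38375 bp, score 0.78), was 6 regions in replicate 1 and 5 in replicate 2.

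The most split domain was on X from 3000786 to 3026300 (25515 bp, score 0.82), with 6 regions in each replicate and scores of 0.92 in both. After it and the 38375 bp domain on 3R came the 3R domain of lowest score, with 5 and 5. The domain on 2R from 12565435 to 12619496 (54062 bp, score 1.06) was 7 regions in replicate 1 and 2 in replicate 2, as was the one on 3L from 1688494. In replicate 1 the widest piece of the 2R domain was 19474 bp, below the threshold, and in replicate 2 it was 41922 bp.

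In the other direction, all 235 wide regions of replicate 2 touched a wide domain of the combined list by at least 1 base, and 229 of the 231 of replicate 1 did. Wholly inside a wide domain lay 169 of the 231 of replicate 1 and 178 of the 235 of replicate 2. The 2 exceptions lay across pairs of narrower combined regions. On 3R from 11233932 to 11258807 (24876 bp, score 1.48), replicate 1 had 1 region where the combined list had 2, of 10500 and 17031 bp. On X from 19338185 to 19360839 (22655 bp, score 1.14) the combined list had 2 regions of 15907 and 10115 bp. Another region of replicate 1, on 3R from 17993511 to 18015784, touched 2 wide domains that lie 4 bp apart.

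Scores of the same domain were close in both replicates. Over the 290 domains, Pearson's r between the mean scores of replicates 1 and 2 was 0.954 and Spearman's rho was 0.945, as a description, since both replicates were used to make the domains. The median absolute difference was 0.087, and 253 domains (87.2%) differed by 0.2 or less. Replicate 1 was higher in 170 domains. The largest difference was on 2R from 6094239 to 6116251, a domain picked for that reason, with 1.96 in replicate 1, where it was 1 region, and 1.47 in replicate 2, where it was 2.

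**Figure D3:**
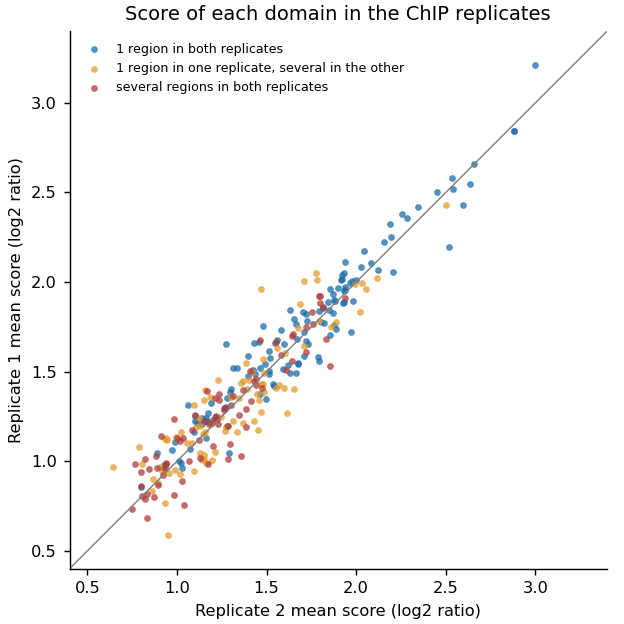
Mean score of each of the 290 wide domains in replicate 2 (x axis, log2 ratio) and replicate 1 (y axis, log2 ratio), coloured by replicate class, with the line of equal scores. Points follow the line, with a median absolute difference of 0.087, and the domain of highest score has 3.21 in replicate 1 and 3.00 in replicate 2.

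The outer edges lay close together in the replicates. In the 125 domains that were 1 region in both replicates, the edges of the replicates differed by a median of 101.5 bp, and 216 of 250 edges (86.4%) lay within 500 bp of each other. The widths of these domains differed between the replicates by a median of 206 bp. One domain stood apart, on 3R from 7411309 to 7438516, where the right edges lay 7475 bp from each other and the widths were 27196 bp in replicate 1 and 19515 bp in replicate 2. Replicate edges mostly fell inside those of the combined list, on the left side in 104 of 125 domains in replicate 1 and 105 in replicate 2, and on the right side in 100 and 109.

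Over all 290 domains, most sides also changed from marked to unmarked close to these edges in the replicates. At 1 kb inside the edge, 92.9% of the 580 sides were marked in replicate 1 and 93.4% in replicate 2. At 0.5 kb outside it, 14.7% and 15.5% were. The drop rests partly on the rule, since a combined region ends where its calls end.

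**Figure D4:**
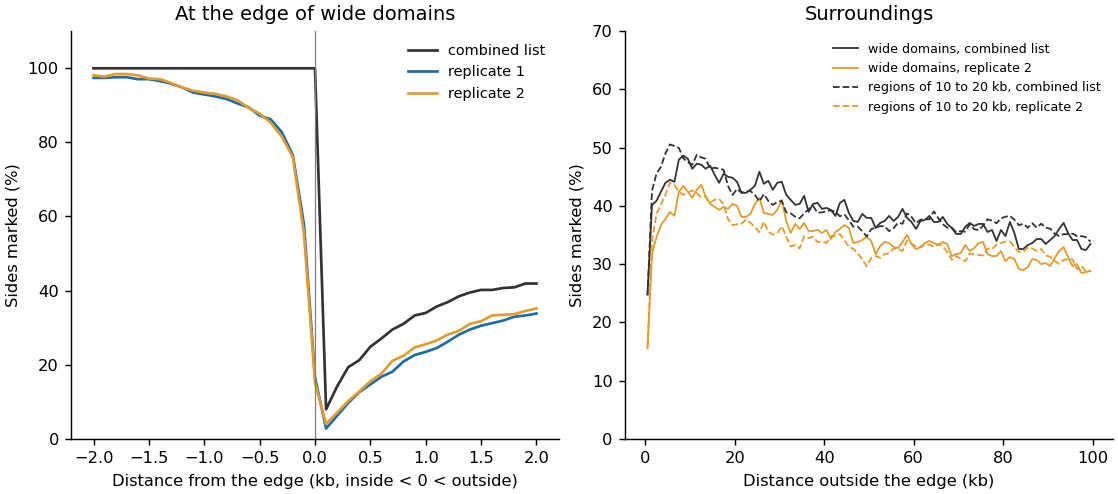
Percentage of the sides of regions that lie inside an enriched region (y axis) at each distance from the edge of the region (x axis, kb). Left, wide domains within 2 kb of the edge in the combined list and both replicates; replicate 1 is at 92.9% at 1 kb inside and 14.7% at 0.5 kb outside. Right, wide domains (solid) and regions of 10 to 20 kb (dashed) out to 100 kb in the combined list and replicate 2.

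The shares of wide domains with a neighbour close by were near those of other regions. The nearest region was a median of 657.5 bp away, and 168 of the 290 (57.9%) had one within 1 kb, beside 53.9% of all regions on the 5 arms and 60.0% of the regions of 10 to 20 kb. Of the 580 sides of wide domains, 46 (7.93%) had a region less than 100 bp away, beside 5.47% of the sides of all regions. A region less than 1 kb away was found on 197 sides (34.0%), beside 33.2%, and one less than 10 kb away on 423 (72.9%), beside 77.2%. The median gap on a side was 2901.5 bp for wide domains and 2342 bp for all regions. A neighbour within 1 kb stood on both sides of 29 domains, on 1 side of 139 and on neither side of 122. Weak domains had such neighbours more often, with 36 of 43 (83.7%) at scores under 1 and 72 of 125 (57.6%) from 1 to 1.5. From 1.5 to 2 it was 47 of 97 (48.5%), and at 2 or more 13 of 25 (52.0%). The same shares by score over narrower regions are not given.

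The regions next to a wide domain had a median width of 3525.5 bp and a median score of 0.69, whereas all regions on the 5 arms had medians of 2971 bp and 0.57. Under 5 kb wide were 351 of the 580 (60.5%), beside 70.1% of the neighbours of all regions. The neighbour scored below the domain on 483 sides (83.3%), and 200 domains scored above both neighbours. Wide domains had a median score of 1.41, above the 0.57 of all regions, so lower neighbours follow largely from that difference. The same counts over all regions were not computed. A wide domain was the direct neighbour on 46 of the 580 sides, and wide domains were 4.34% of the regions on the 5 arms.

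Further out, the surroundings held many other regions. From 5 to 10 kb outside the edge, 40.9% ± 0.341 of positions were marked in the replicates, and from 10 to 20 kb 40.6% ± 0.354 were (SD, n = 2). From 20 to 50 kb the value was 36.4% ± 0.756, and from 50 to 100 kb it was 31.4% ± 0.727. Of the 5 arms, 26.8% was marked in replicate 1 and 27.4% in replicate 2. Regions of 10 to 20 kb had 42.3% ± 0.818, 40.03% ± 0.716, 34.3% ± 0.251 and 31.5% ± 0.526 at the same distances. The differences between these values were not tested.

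A few domains stood alone. Only 20 of the 290 had no region within 10 kb on either side. The share of all regions this isolated was not computed. The 90th percentile of the distance to the nearest region was 7050 bp for wide domains and 6546.5 bp for all regions on the 5 arms. The most isolated, on 3L from 13221082 to 13272036 (50955 bp), had 108473 bp without a region on its left and 103344 bp on its right. Each replicate had it as 1 region, with scores of 1.89 and 1.93. Next came 3R from 11491414 to 11514392 (22979 bp, score 1.76) and 2L from 1378600 to 1421173 (42574 bp, score 2.08), with nearest regions 97978 and 90831 bp away. These 3 were chosen after their values were seen.

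Some domains lay in chains. Counting domains less than 10 kb apart, 52 of the 290 formed 24 chains, of which 21 had 2 domains, 2 had 3 and 1 had 4. By arm there were 11 on 3R, 4 on 2L, 4 on X, 3 on 3L and 2 on 2R. The longest chain, on 3L from 2466536 to 2595786, held 4 domains over 129 kb, with scores from 0.98 to 1.79 and 90.4% of its length inside them. The next, on 3L from 13534281 to 13659629, held 3 over 125 kb with scores from 1.24 to 1.41, and one on 3R, from 6336401 to 6440717, held 3 over 104 kb with scores from 0.89 to 1.95.

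Because gaps could be tiny, the boundary between 1 domain and 2 was thin. On 3R from 17958899 to 18061117, 2 domains of 56830 and 45385 bp were parted by 4 bp, and a single region of replicate 1 ran across that gap. Together they span 102 kb. If regions less than 1 kb apart were joined, 468 stretches of 20 kb or more would result, filling 14.2% of the 5 arms. Of these, 259 held 1 wide domain, 15 held 2 or more, and 194 were made of narrower regions alone. The widest would be 3L from 432496 to 576471, of 144 kb.

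Between neighbouring wide domains of an arm the median distance was 205 kb, and the quartiles were 53.1 and 488 kb. Of the 285 spacings, 98 were under 100 kb and 21 were 1 Mb or more. The longest, on X from 15057098 to 17369666 (2313 kb), held 163 narrower regions that filled 26.2% of it, the widest of 19520 bp. On X from 8133480 to 10384422 (2251 kb) there were 146 regions filling 28.3%. On 2L from 14689912 to 16602567 (1913 kb) there were 65 regions filling 11.2%. Most of the length of these 3 spacings lay outside regions. All arms together were marked over 31.3%, but that share includes the wide domains, which a spacing cannot hold. Over 257 of the 285 spacings the median share marked was 28.3%, with quartiles of 19.2% and 41.0%.

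Wide domains were spread over all 5 arms, and 160 of the 241 windows of 500 kb held at least 1. Arm 3R had 83 domains (2.97 per Mb), 2R 57 (2.70 per Mb), 3L 62 (2.53 per Mb), 2L 50 (2.17 per Mb) and X 38 (1.69 per Mb). They filled 10.1% of 3R, 9.58% of 2R, 8.82% of 3L, 7.83% of 2L and 5.55% of X. Of all regions on the arm they were 5.26% on 3R, 4.23% on 2R, 4.67% on 3L, 4.11% on 2L and 3.14% on X. Of the marked bases they held 30.6% on 3R, 26.1% on 2R, 28.7% on 3L, 26.9% on 2L and 20.5% on X. In the replicates, wide regions numbered 66 and 67 on 3R, 37 and 44 on 2R, 53 and 51 on 3L, 45 and 45 on 2L, and 30 and 28 on X, in replicates 1 and 2. In each replicate X had the fewest of the 5 arms.

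The domains of X were also the weakest at the median. Median scores were 1.50 on 2R, 1.45 on 2L, 1.44 on 3L, 1.42 on 3R and 1.25 on X. Scores of 2 or more were found in 10 domains on 3R, 5 on 2L, 4 on 2R, 4 on 3L and 2 on X. Domains that were 1 region in both replicates made up 31.6% on X and between 42.1% and 46.0% on the other arms. These differences between arms were not tested. Scores and continuity of all regions on each arm are not given, so the differences cannot be called particular to wide domains. Median widths were 31233 bp on 2L, 29827 bp on 2R, 28749 bp on 3R, 27686 bp on X and 26661 bp on 3L.

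**Figure D5:**
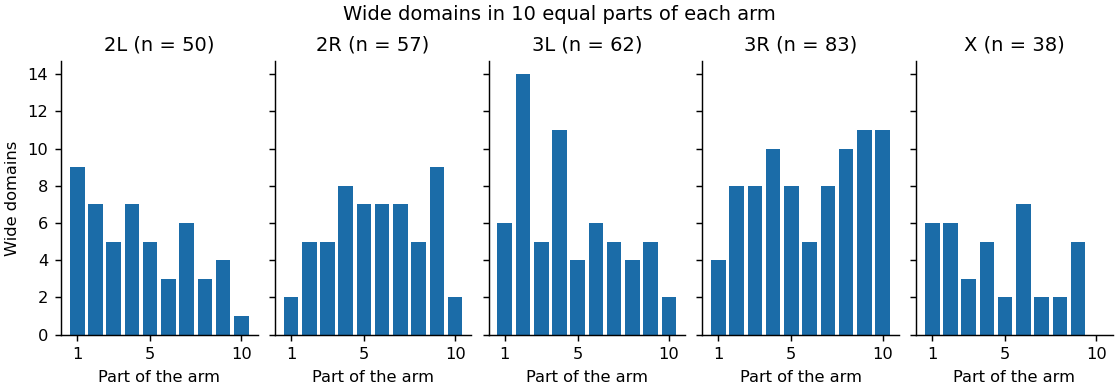
Number of wide domains (y axis) in each of 10 equal parts of an arm (x axis, counted from the lower-coordinate end), 1 panel per arm, with the number of domains on the arm. Part 10 of X holds 0 domains, and part 2 of 3L holds 14.

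Along the arms the domains were uneven. With each arm cut into 10 parts of equal length, the fullest was part 2 of 3L, with 14 domains, and the only empty one of the 50 was part 10 of X, which lies beside the centromere. In the part next to the centromere, 2L held 1 domain, 3L held 2, 2R held 2 and 3R held 4. Low counts were also found elsewhere, with 2 domains in part 10 of 2R and 2 in each of parts 5, 7 and 8 of X. The number of all regions in each part was not computed. The densest windows of 500 kb held 5 domains: 2R from 6500001 to 7000000, 43.9% of which lay inside wide domains, 3R from 13500001 to 14000000 with 29.8%, and 3R from 27000001 to 27500000 with 24.5%. No wide domain lay in 81 of the 241 windows.

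The widest domain of each arm varied in build. On 2L the widest ran from 19878829 to 19961391 (82563 bp, score 1.42) and was 4 regions in replicate 1 and 3 in replicate 2, with pieces that scored between 0.88 and 1.67 and between 0.87 and 1.69. The next on 2L, from 18319420 to 18391962 (72543 bp, score 2.02), had its nearest neighbour 49744 bp away, and in replicate 2 it was 1 region of 72562 bp. The others of the 5 widest on 2L, from 1884281, 4478753 and 7496716, were 59515, 57378 and 52189 bp wide and scored 1.40, 1.42 and 1.85. None of the 5 was 1 region in both replicates.

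On 2R, 4 of the 5 widest were unbroken. The widest, from 15416976 to 15519572 (102597 bp, score 1.57), was the exception, with 3 regions in replicate 1 and 2 in replicate 2. The domain from 13152406 to 13252986 was 100581 bp wide in the combined list, 100431 bp in replicate 1 and 100584 bp in replicate 2, with scores of 1.94 and 1.87. Those from 17281227 (87407 bp), 6911384 (83402 bp) and 17759037 (74020 bp) were also 1 region in both, and their combined scores were 1.46, 1.56 and 1.55.

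On 3L, the 3 domains above 100 kb differed widely in score. The one from 441995 to 576471 (134477 bp), the widest of all wide domains, scored 1.79 and was 2 regions in replicate 1 and 4 in replicate 2. Its widest pieces were 83976 bp in replicate 1 and 64305 bp in replicate 2. It was preceded by a region of 9460 bp and score 2.31 only 39 bp away. Near the centromere, the domain from 22287216 to 22401614 (114399 bp) scored 2.53, with 2.52 and 2.54 in the replicates, and was 1 region in both. The domain from 22128629 to 22235261 (106633 bp), 52 kb from it, scored 1.06, with 1.13 and 1.00, and was 4 and 3 regions in replicates 1 and 2. Domains from 8820172 (63050 bp, score 1.23) and 10508704 (60847 bp, score 1.45) were each 2 regions in replicate 1 and 1 in replicate 2.

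On 3R, 3 of the 5 widest were 1 region in both replicates. These were the 118144 bp domain of score 2.59, one from 10217649 to 10307907 (90259 bp, score 1.62) and one from 14871641 to 14957819 (86179 bp, score 1.50). The domain from 15317723 to 15420891 (103169 bp, score 1.35) was 3 regions in each. The last of the 5, from 10491156 to 10553945 (62790 bp, score 1.42), was 1 region in replicate 2 and 4 in replicate 1, whose pieces scored between 0.31 and 1.77.

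On X none of the 5 widest was unbroken in both replicates. The widest, from 12117123 to 12190072 (72950 bp), scored 1.17 and was 3 and 2 regions in replicates 1 and 2. The domain from 2373826 to 2440090 (66265 bp, score 1.46) was 3 regions of mean score 1.27 in replicate 1 and 1 region of score 1.62 in replicate 2. Those from 18859103, 580234 and 5059931 were 61725, 55166 and 49685 bp wide, with scores of 1.40, 1.39 and 1.13.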

How the data were processed

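Wild-type embryos gave 2 ChIP libraries and 2 input libraries. The aligner was Bowtie 0.12.7 (source: the submitters' processing notes). Per the file headers, positions are on FlyBase release 5. The sources used here do not say how regions were called or how the replicates were joined into the combined list. The score of each region, deposited by the authors without a definition, was read as a log2 ratio. In the combined list 543 pairs of scores differed exactly (tolerance 1e-09) by the log2 of 3/2, 4/3 or 5/4, and 0 pairs by their natural or base-10 logarithms.

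Region widths, gaps, chains and overlaps of at least 1 base were computed with Python 3.11.15, numpy 2.4.6 and pandas 2.3.3, after the code was tested on simulated regions. A replicate's score over a domain is the mean of the scores of its regions there, weighted by overlapping bases. Since widths chose the domains, and scores and neighbours come from the same calls, no test was run. Domains and classes were chosen with earlier results of these data known. Named domains were the 5 widest of each arm, those of highest and lowest score, the most split, those beside the width threshold, and the longest chains and spacings. Depth is unknown. Sequences and genes are not given, since the gene table at hand describes Release 6. Alternatives were other width thresholds, joining of close regions, a median-score filter, an overlap of 50% of a replicate region's length, other chain gaps and each replicate alone.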

Additional observations from a re-analysis of the deposited data

How the results depend on the processing

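Of 55 values recomputed under alternatives, 34 moved and 21 did not, judged against the SD between the replicates or, for counts, a factor of 1.5. The cause was not tested unless it follows from the construction, as with a width threshold, which selects other domains. With a threshold of 15 kb there were 477 domains, with a median width of 22179 bp, a median score of 1.35, 11.1% of the arms, 53 chains, a median spacing of 116560 bp and 380.5 wide regions per replicate. With 30 kb the values were 131 domains, 41326 bp, 1.47, 5.22%, 4 chains, a spacing of 511232.5 bp and 101.5 wide regions, with a nearest region at 880 bp. Joining regions less than 1 kb apart gave 468 domains, a median width of 29776.5 bp, a score of 1.22 weighted by width, 14.2% of the arms, a nearest region at 2924.5 bp, 53 chains and a spacing of 126637 bp. Of the 21, 6 came from keeping only regions at or above the median score of 0.57, below the lowest domain score of 0.65, so no domain could be lost and these 6 say nothing about stability. Under that filter 53.1% of the domains were 1 region in both replicates. The domains were the same, so this share changed only because replicate regions of low score were left out. The nearest region was 2749.5 bp away, and leaving out neighbours can only lengthen that distance. Both changes thus follow from the filter and describe no property of the domains. Single replicates gave 231 to 235 domains, median widths of 27908 to 28509 bp, scores of 1.49 to 1.51, 6.42% to 6.69% of the arms, spacings of 240452 to 251585.5 bp, nearest regions at 752 to 979 bp and 19 to 26 chains. Of the 290 combined domains, 56.6% to 59.3% were 1 region in a single replicate, a share that cannot be below that for both. Requiring 50% of a replicate region inside the domain left 43.1%. Chain gaps under 5 kb and under 20 kb gave 16 and 35 chains, beside 24, and were counted as not moved. The 16 lies at the limit of the factor of 1.5. The wide regions per replicate, 231 and 235, were set against their own mean of 233, so they could hardly move. No paired analysis was possible because the result comes from no test and no separate list of regions was used for the inputs. Depth is unknown, and its bearing on weak or split domains was not tested.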
